A study of Mus musculus with 49 samples.

Results

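Dorsal root ganglia (DRG) of 6 HbSS-BERK (sickle) mice were compared with those of 6 HbAA-BERK (control) mice, all 5 months old and all exposed to hypoxia/reoxygenation (H/R). The 12 libraries were chosen by their group alone, out of 48 libraries that also cover an age of 2 months and mice kept in normoxia. HbSS-BERK mice carry a homozygous knockout of the murine α and β globins and transgenes for human α and βS globin. HbAA-BERK mice share that mixed background, also make no murine adult globin, and carry human α and βA globin, so both groups are fully humanised for hemoglobin and differ in the β chain they make. H/R was 3 h at 8% O2 followed by 1 h in room air, given in 2 episodes a week apart, and the ganglia were taken 24 h after the second. Each library comes from 1 mouse, and reads from the human transgenes were not analysed here. The comparison asks how the sensory ganglia of sickle and control mice differ after a stimulus of the kind that brings on vaso-occlusion.

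The libraries held 13.4 to 24.8 M reads (1 M is 1e+06) in named genes in HbAA-BERK mice (median 17.8 M) and 17.2 to 22.3 M in HbSS-BERK mice (median 18.5 M). Levels are given as CPM, read counts relative to the library size after scaling between libraries (per 1e+06 reads), and differences as log2 fold changes with their standard error (SE), positive where HbSS-BERK mice were higher. A gene is said to have risen or fallen where the quasi-likelihood test of edgeR on the read counts gave a Benjamini-Hochberg adjusted p under 0.05 over all 15221 genes tested, and every adjusted p below is from that test. The 11 neuronal and DRG marker genes all had reads in every group. Their summed level was 13281 to 16161 CPM in HbAA-BERK and 12633 to 17021 CPM in HbSS-BERK mice, and none of them was called.

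Some libraries stood apart. Alb, the liver's albumin, was at 75.5 and 238 CPM in HbAA-BERK replicates 1 and 2 and at no more than 4.23 CPM in the other 10 libraries. The results are therefore also given without these 2 controls, which leaves 4 controls against 6 sickle mice. The first principal component (35.45% of the variance) separated replicates 1 to 3 from replicates 4 to 6 in both genotypes, while the second (24.02%) separated the genotypes. The labels give these numbers no meaning, and both genotypes have 3 mice on each side. HbSS-BERK replicate 1 was the highest sickle library for 23 of the 25 erythroid and for all 16 cell cycle genes described below, and HbAA-BERK replicate 6 was the highest control for 15 of 17 nerve injury genes.

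After H/R at 5 months 246 genes were higher (1.62% of those tested) and 106 lower (0.696%) in HbSS-BERK mice, 352 in all (2.31%). These shares are the background for each count of called list members below. The higher genes were led by the erythroid program, with the cell division program beside it. Interferon-stimulated genes were found on both sides, 2 higher and 2 lower. The lower genes held the macrophage gene Ly86, genes that sensory neurons switch on after axon injury, genes induced by glucocorticoids and the collagen gene Col5a2. None of the 28 nociceptor genes tested was called. Without the 2 controls rich in Alb, 46 genes were higher (0.298% of 15424 tested) and 30 lower (0.195%). Of these 76 genes 71 had also been called with all 12 mice. That fit has 4 controls in place of 6, so the removal of Alb-rich libraries and the smaller number of mice cannot be told apart. With replicates 1 to 3 alone 122 genes were higher and 181 lower, and with replicates 4 to 6 alone 106 were higher and 28 lower. The count of 352 fell by more than 1.5 times without HbAA-BERK replicate 1 (157), 2 (185), 3 (231), 5 (202) or 6 (232) or sickle replicate 3 (188) or 6 (185). The p-values set the difference between the groups against the spread between these mice. In ganglia taken as a whole, fewer cells of a type and less RNA per cell cannot be told apart.

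Red blood cell precursors mature under the control of the hormone erythropoietin and of the transcription factors GATA1 and KLF1. As they mature they fill with heme, made from glycine and succinyl-CoA in a pathway whose erythroid first enzyme is ALAS2, and with globin chains, and they build a membrane skeleton around band 3. GATA1 binds GATA motifs and KLF1 binds CACCC boxes in the promoters of many of these genes. The 250 bases before the annotated start of 3 genes that rose are shown because each holds both motifs, with a GATA motif (AGATAA or its complement TTATCT) and a CACCC box (CACCC or GGGTG) in capitals. The sequences are from RefSeq on GRCm38.p6 and are written on the strand of the gene.
Alas2, chrX:150547167-150547416, plus strand: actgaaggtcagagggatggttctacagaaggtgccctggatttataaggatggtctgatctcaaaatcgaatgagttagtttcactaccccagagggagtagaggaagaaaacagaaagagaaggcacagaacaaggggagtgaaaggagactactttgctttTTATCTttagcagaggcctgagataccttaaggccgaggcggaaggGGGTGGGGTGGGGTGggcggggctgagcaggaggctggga
Epor, chr9:21963577-21963826, minus strand: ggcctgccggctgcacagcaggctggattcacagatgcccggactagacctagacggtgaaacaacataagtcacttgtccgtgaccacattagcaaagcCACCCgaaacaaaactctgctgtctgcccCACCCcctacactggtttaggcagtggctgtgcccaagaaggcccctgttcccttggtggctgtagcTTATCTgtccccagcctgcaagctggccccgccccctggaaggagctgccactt
Rhd, chr4:134864286-134864535, plus strand: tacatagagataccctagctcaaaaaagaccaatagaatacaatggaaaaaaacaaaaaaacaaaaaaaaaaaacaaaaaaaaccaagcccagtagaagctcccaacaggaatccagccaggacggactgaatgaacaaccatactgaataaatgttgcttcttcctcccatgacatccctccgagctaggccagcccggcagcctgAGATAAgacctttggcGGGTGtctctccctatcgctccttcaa

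The GATA motif begins 86 bases before the start in Alas2, 54 in Epor and 43 in Rhd, and the boxes of Alas2 lie in a row between it and the start. Of the 20 erythroid genes that rose, 14 had an entry in the promoter table. A gene was counted where any of its promoter entries held the motif on either strand. Among these 14 genes 6 had AGATAA (42.9%) and 12 had CACCC (85.7%), and these motifs do not overlap in letters. Over all 27025 genes of the promoter table the shares were 11.4% and 54.5%. Over all 181 genes that rose and had an entry the shares were 14.4% for AGATAA and 67.4% for CACCC. Over the 75 genes that fell and had an entry they were 6.67% and 65.3%. A match is a run of letters and was not measured as a binding site here.

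Of 25 erythroid genes tested 20 rose and none fell, with a median log2 fold change of 2.55 against -0.01 over all genes tested. All 25 were positive, and in 20 of them every sickle mouse was above every control, which was so for 1.74% of all genes. Their summed level was 681 to 960 CPM in HbAA-BERK and 1423 to 3925 CPM in HbSS-BERK mice. Without the controls rich in Alb 11 of the 25 were called (among them Alas2, Slc4a1, Rhd, Kel, Trim10, Gata1, Bpgm, Hba-x, Slc25a37 and Epor) and the median was 2.51. With replicates 1 to 3 against 4 to 6 as a term 23 were called. Leaving out 1 mouse at a time gave 17 to 22 called genes and medians of 2.06 to 2.74, the lowest median without HbSS-BERK replicate 1. Within replicates 1 to 3 the median was 2.59 with 3 genes called, and within replicates 4 to 6 it was 2.36 with 19 called.

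Alas2 (chrX:150547417-150570622, mm10) was at 20.2, 45.2, 58.2, 71.1, 28.9 and 45.8 CPM in HbAA-BERK replicates 1 to 6. In HbSS-BERK replicates 1 to 6 it was at 574, 171, 292, 215, 284 and 250 CPM. The lowest sickle mouse, replicate 2, was thus above the highest control, and sickle replicate 1 stood far above the other sickle mice. The log2 fold change was 2.73 (SE 0.34, adjusted p = 0.00385), and it was 2.55 without the controls rich in Alb (adjusted p = 0.0295).

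The transcription factors of the lineage moved with it. Gata1 (chrX:7959260-7976663), the master regulator of erythroid maturation, was at 0.561 to 2.67 CPM in HbAA-BERK mice and at 23.3, 5.6, 9.80, 7.25, 6.82 and 9.57 CPM in HbSS-BERK replicates 1 to 6. The groups did not overlap, and the log2 fold change was 2.72 (SE 0.40, adjusted p = 0.00605). Klf1, which switches on adult β globin and much of the late program, rose by 2.5 (SE 0.42, adjusted p = 0.0104) from 1.57 to 5.72 CPM in the control mice to 7.30 to 40.9 CPM in the sickle mice. Without the controls rich in Alb Gata1 was called (adjusted p = 0.045) and Klf1 was not (0.0615). Epor (chr9:21958897-21963576), the erythropoietin receptor, was at 1.51 to 3.35 CPM in HbAA-BERK and 4.26 to 16.6 CPM in HbSS-BERK mice, and it rose by 2.02 (SE 0.30, adjusted p = 0.00605).

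**Figure D1:**
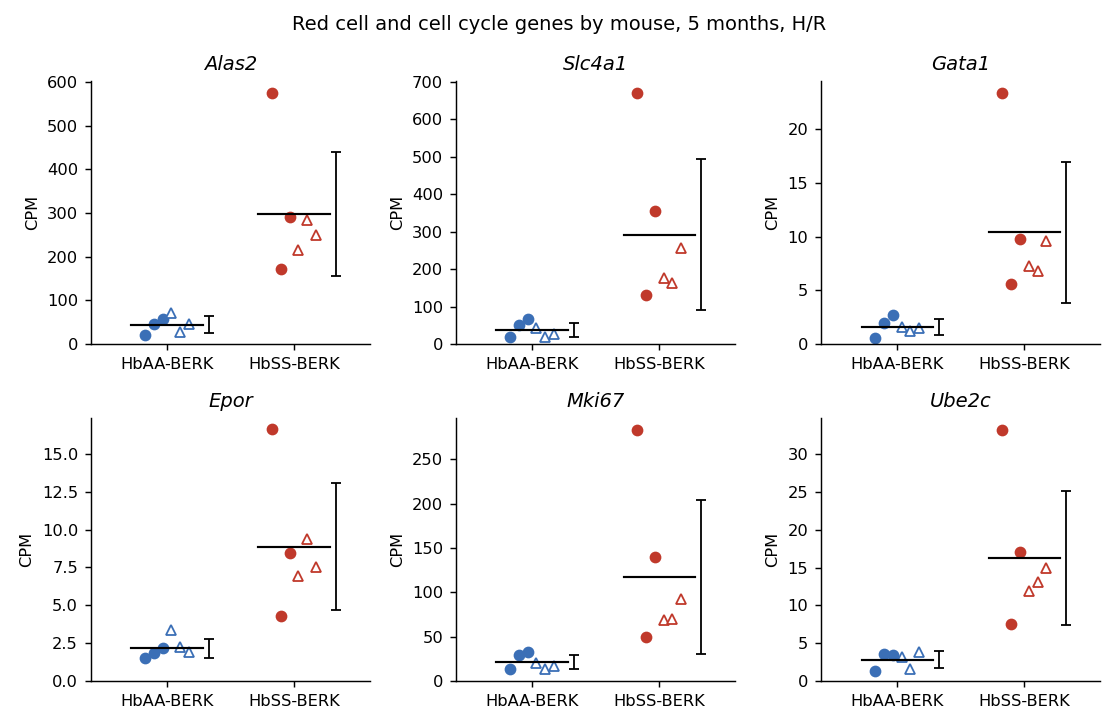
Level in CPM (linear vertical axes) of 4 erythroid genes (Alas2, Slc4a1, Gata1, Epor) and 2 cell division genes (Mki67, Ube2c) in each of the 12 mice (6 HbAA-BERK, 6 HbSS-BERK). Filled circles are replicates 1 to 3, open triangles replicates 4 to 6, the line is the mean and the bar the SD. In each panel every sickle mouse is above every control, and the highest point is sickle replicate 1 (574 CPM for Alas2).

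Genes of the red cell membrane and of oxygen carriage rose too. Slc4a1, the anion exchanger known as band 3, was at 18.0 to 66.3 CPM in HbAA-BERK mice and at 669, 132, 355, 176, 164 and 257 CPM in HbSS-BERK replicates 1 to 6, a log2 fold change of 2.96 (SE 0.46, adjusted p = 0.00679). Bpgm, which makes the 2,3-bisphosphoglycerate that lowers the oxygen affinity of hemoglobin, was at 37.3 to 56.1 CPM in the control and 86.0 to 226 CPM in the sickle mice. The log2 fold change of Bpgm was 1.58 (SE 0.19, adjusted p = 0.00385) with all mice and 1.5 (adjusted p = 0.0349) without the controls rich in Alb. Hba-x (chr11:32276600-32278116), the embryonic α-like globin, which the knockout of the adult genes leaves in place, was at 0.496 to 1.38 CPM in HbAA-BERK and 3.68 to 16.1 CPM in HbSS-BERK mice. Hba-x rose by 3.36 (SE 0.38, adjusted p = 0.00225). The 5 erythroid genes not called were Hbb-bh1 (3.14, adjusted p = 0.0509), Xpo7 (0.81, 0.0514), Dmtn (0.27, 0.0509), Tfrc and Tspo2.

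Further groups of red cell genes, put together after their values were seen, are given as descriptions. Of 9 heme synthesis enzymes 3 rose, among them Alas2 and Fech, which inserts the iron (0.98). Of 10 genes of the membrane skeleton 3 rose, among them Epb4.2 (protein 4.2, 2.76, SE 0.53) and Epb4.1 (protein 4.1, 1.58, SE 0.28). Of 16 genes for blood group proteins 10 rose, among them Rhd (2.63, SE 0.41), Kel and Icam4 (2.21, SE 0.34). In the other direction, the water channel Aqp1 fell by 0.46 (SE 0.08, adjusted p = 0.0121), from 407 to 471 CPM in HbAA-BERK to 299 to 402 CPM in HbSS-BERK mice. Of the enzymes that take up and break down heme, Blvrb, a biliverdin reductase abundant in red cells, rose by 0.72 (SE 0.16, adjusted p = 0.0398), the only one called of 13 heme and iron handling genes.

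The cell division program rose with the erythroid one. Of 16 cell cycle genes 15 rose, all but Bub1, against 1.62% of all genes tested. The median log2 fold change of the list was 1.93. Summed levels were 57 to 111 CPM in HbAA-BERK and 156 to 760 CPM in HbSS-BERK mice. Mki67 (chr7:135689784-135716450), the proliferation marker Ki-67, was at 14.0, 29.5, 32.1, 19.9, 13.4 and 17.1 CPM in HbAA-BERK replicates 1 to 6. In HbSS-BERK replicates 1 to 6 it was at 284, 49.8, 140, 68.3, 69.7 and 92.4 CPM, above every control in each mouse. The log2 fold change was 2.49 (SE 0.42, adjusted p = 0.0104). Ube2c, which drives the exit from mitosis, rose by 2.54 (SE 0.36), Rrm2, which supplies deoxynucleotides, by 2.17 (SE 0.39), the kinase Cdk1 by 1.91 (SE 0.34) and Birc5 (survivin) by 1.71 (SE 0.29).

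This count varied more with the mouse left out than the erythroid one did. It was 6 of 16 without HbAA-BERK replicate 1, 9 without HbAA-BERK replicate 5 or 6 and 10 without control replicate 2 or 4 or sickle replicate 3 or 6. Without the controls rich in Alb it was 1 (Ube2c, adjusted p = 0.045), with a median of 1.87, and without HbSS-BERK replicate 1 the count was 13 with a median of 1.42. Within replicates 1 to 3 none was called, and within replicates 4 to 6 13 were. Of the 6 MCM helicase genes, which open the DNA at replication origins and were grouped after their values were seen, Mcm6 (1.56, SE 0.32), Mcm3, Mcm5 and Mcm7 were higher, and none of these was called without HbAA-BERK replicate 1.

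No tested marker gene of neutrophils, platelets, lymphocytes, skeletal muscle or liver was called. Calls among the macrophage, satellite glia, pericyte and fibroblast genes are given further below. None of 15 neutrophil genes was called, with a median of -0.02. Their summed level was 449 to 747 CPM in HbAA-BERK and 298 to 1485 CPM in HbSS-BERK mice, the highest being sickle replicate 1, where S100a9 reached 407 CPM. Mpo and Elane, made by early granulocyte precursors, had log2 fold changes of 0.72 (adjusted p = 0.54) and 0.59 (adjusted p = 0.669). No gene was called among 11 of platelets and megakaryocytes (median 0.65, 9 positive), 7 of B cells (0.62, 6 positive) and 5 of T and NK cells (0.56, all positive). All 14 skeletal muscle genes were positive with a median of 1.10, none of them called, and their summed level was 378 to 1778 CPM in the control and 790 to 4711 CPM in the sickle mice. Of 22 hepatocyte genes 6 had enough reads to be tested, Alb not among them, and none was called. Their median was -1.83, and 0.02 without the controls rich in Alb. The summed level of the 22 genes was 14.1 to 746 CPM in the control and 15.3 to 48.5 CPM in the sickle mice. The absence of calls therefore does not show equal levels of liver RNA. The part of these cells in the results was not tested.

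**Figure D2:**
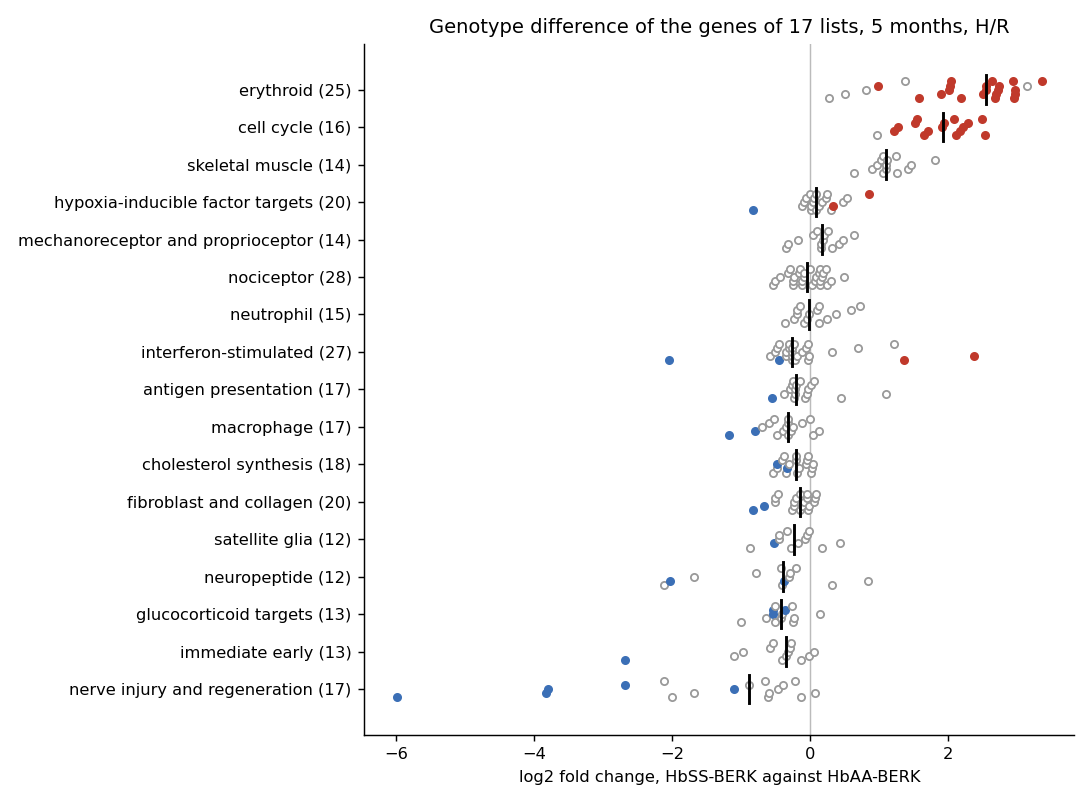
Log2 fold change of HbSS-BERK against HbAA-BERK mice (horizontal axis) for every tested gene of 17 gene lists (rows). Red points were called higher, blue points lower, hollow grey points were not called, and the black bar is the median of the list. The erythroid (median 2.55) and cell cycle (1.93) lists lie to the right, and the nerve injury list (-0.89) to the left.

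Nerve injury genes were lower in the sickle mice. When an axon is cut or crushed, a sensory neuron raises transcription factors such as ATF3 and a set of growth and peptide genes. Some of these genes are nearly silent in an uninjured ganglion and others are not. Of 17 such genes tested 5 fell in HbSS-BERK mice (Sprr1a, Atf3, Ecel1, Cckbr and Stmn4), against 0.696% of all genes tested, and none rose. The median was -0.89, and 16 of 17 were negative. Their summed level was 567 to 1772 CPM in HbAA-BERK and 518 to 627 CPM in HbSS-BERK mice, so the sickle mice lay close together at the low end while the controls spread upward.

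Sprr1a (chr3:92483954-92485881) encodes a small proline-rich protein of the skin's cornified envelope that also promotes axon outgrowth. It was at 22.9, 9.67, 1.11, 17.3, 37.6 and 123 CPM in HbAA-BERK replicates 1 to 6. In HbSS-BERK replicates 1 to 6 it was at 1.98, 0.584, 0, 0.237, 0.308 and 0.165 CPM. The lowest control, replicate 3, overlapped with sickle replicate 1, and the other 5 controls were above all sickle mice. The log2 fold change was -5.99 (SE 1.04, adjusted p = 0.0119), -6.34 without the controls rich in Alb (adjusted p = 0.045), and between -7.05 and -5.00 when 1 mouse was left out at a time. Its promoter is shown because it holds the AP-1 motif (TGACTCA or its complement TGAGTCA, in capitals), which is bound by the transcription factors that neurons induce after injury.
Sprr1a, chr3:92485882-92486131, minus strand: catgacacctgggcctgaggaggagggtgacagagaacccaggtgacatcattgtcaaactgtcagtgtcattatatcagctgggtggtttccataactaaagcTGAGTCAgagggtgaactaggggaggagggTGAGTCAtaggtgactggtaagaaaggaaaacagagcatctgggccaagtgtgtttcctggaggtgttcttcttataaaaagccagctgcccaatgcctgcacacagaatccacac

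The motif occurs 146 and 116 bases before the start. Of the 5 injury genes that fell, 4 had a promoter entry, and Sprr1a alone of these held the motif. The share was 5.16% over all genes of the promoter table and 14.3% over the erythroid genes that rose (2 of 14). Over all genes with an entry it was 10.7% of the 75 that fell and 4.42% of the 181 that rose.

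Atf3 (chr1:191170296-191183333) was at 48.7, 35.8, 18.3, 36.9, 51.6 and 207 CPM in HbAA-BERK replicates 1 to 6, and at 9.86 to 11.8 CPM in all 6 HbSS-BERK mice. The groups did not overlap, and the log2 fold change was -2.68 (SE 0.49, adjusted p = 0.0149). Ecel1 (chr1:87142874-87157085), an endopeptidase of injured neurons, was at 2.01 to 54.3 CPM in HbAA-BERK and at 0.245 to 3.03 CPM in HbSS-BERK mice, and fell by 3.82 (SE 0.74, adjusted p = 0.0185). In all of these genes control replicate 6 was the highest and control replicate 3 the lowest. Cckbr, the cholecystokinin B receptor, fell by 3.79 (SE 0.69, adjusted p = 0.0149) and Stmn4, a microtubule regulator, by 1.11 (SE 0.22, adjusted p = 0.0235). Without the controls rich in Alb Sprr1a, Atf3 and Ecel1 were called and the others were not (Cckbr adjusted p = 0.0517, Stmn4 0.0657).

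Other injury genes pointed the same way without passing the test. Galanin (Gal) had a log2 fold change of -1.68 (adjusted p = 0.0996), with 223 CPM in control replicate 6 and 19.5 to 46.9 CPM in the other controls. Npy (-2.11, 0.16), Gpr151 (-2.0, 0.0844), Sox11 (-0.89, 0.0814) and Gap43 (-0.47, 0.166) were not called either. Within replicates 1 to 3 1 of the 17 genes was called, and within replicates 4 to 6 2 were. The list's median was -0.75 without control replicate 6 and as low as -0.99 when another mouse was left out.

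**Figure D3:**
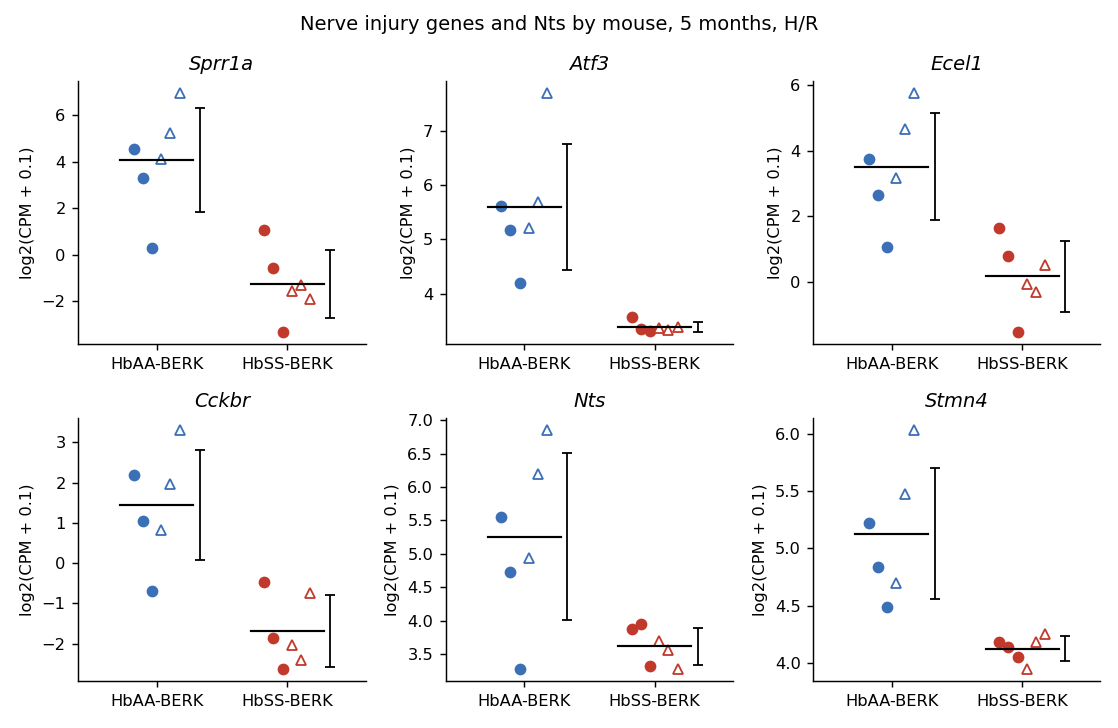
Level of the injury-linked genes Sprr1a, Atf3, Ecel1, Cckbr, Nts and Stmn4, plotted as log2(CPM + 0.1), in each mouse. Filled circles are replicates 1 to 3, open triangles replicates 4 to 6, the line is the mean and the bar the SD. The sickle mice lie close together for Atf3 (9.86 to 11.8 CPM), while the controls spread from 18.3 to 207 CPM.

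Of 12 neuropeptide genes tested 2 fell, and none was called without the controls rich in Alb (adjusted p = 0.0757 for Nts, 0.102 for Calcb). Nts, neurotensin, was at 9.58 to 116 CPM in HbAA-BERK mice, again highest in replicate 6, and at 9.57 to 15.4 CPM in HbSS-BERK mice, which overlapped with control replicate 3. The log2 fold change of Nts was -2.03 (SE 0.45, adjusted p = 0.036). Calcb, the β form of calcitonin gene-related peptide (CGRP), varied less. It was at 172 to 187 CPM in HbAA-BERK and 123 to 160 CPM in HbSS-BERK mice, with a log2 fold change of -0.38 (SE 0.08, adjusted p = 0.0266). Calca, the α form (-0.43, adjusted p = 0.127), and Tac1, which encodes substance P (-0.31, 0.179), did not pass.

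The 28 genes on the nociceptor list had a median of -0.05, and none of them passed. The heat and capsaicin channel Trpv1 (-0.24, adjusted p = 0.521), the irritant channel Trpa1 (0.49, 0.221) and the sodium channel Scn10a (-0.09, 0.896) are examples. None of 14 mechanoreceptor and proprioceptor genes (median 0.17) and none of 14 opioid and cannabinoid genes (median 0.12) was called. Among the last was Mgll, which breaks down the endocannabinoid 2-arachidonoylglycerol, with a log2 fold change of 0.51 (SE 0.13, adjusted p = 0.0564, and 0.0147 once the split of replicates 1 to 3 and 4 to 6 was modelled).

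The immune genes went in both directions. Ly86 (chr13:37345345-37419036), also called MD-1, a partner of the Toll-like receptor relative CD180 on macrophages and B cells, was at 185 to 280 CPM in HbAA-BERK mice and at 88.9 to 125 CPM in HbSS-BERK mice. With a log2 fold change of -1.17 (SE 0.11, adjusted p = 0.000729) it had the smallest p of all lower genes, and it was called at -1.24 without the controls rich in Alb (adjusted p = 0.00525). Of 17 macrophage genes the only other one called was Adgre1, the F4/80 antigen (-0.79, SE 0.18, adjusted p = 0.0402). The list had a median of -0.33 and a summed level of 533 to 775 CPM in the control and 296 to 593 CPM in the sickle mice. B2m (chr2:122147687-122153082), the light chain of MHC class I, fell by 0.56 (SE 0.11, adjusted p = 0.0178), from 205 to 276 CPM to 121 to 181 CPM, and was the only one called of 17 antigen presentation genes. Neither Adgre1 (adjusted p = 0.159) nor B2m (0.0512) was called without the controls rich in Alb. With replicates 1 to 3 against 4 to 6 as a term, 4 of the 17 macrophage genes fell.

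Of 27 interferon-stimulated genes 2 rose, 2 fell and the median was -0.26. Rsad2 (chr12:26442743-26456452), the antiviral enzyme viperin, was at 8.54 to 13.2 CPM in HbAA-BERK mice and at 106, 25.1, 75.6, 36.6, 38.8 and 51.9 CPM in HbSS-BERK replicates 1 to 6. The groups did not overlap, and the log2 fold change was 2.38 (SE 0.31, adjusted p = 0.00412). Isg15, a ubiquitin-like protein, rose by 1.36 (SE 0.31, adjusted p = 0.0367). Gbp6 (chr5:105270702-105295871), a guanylate-binding protein, went the other way, from 1.18 to 2.97 CPM in the control to 0.209 to 0.796 CPM in the sickle mice (-2.04, SE 0.30, adjusted p = 0.00605). Oasl2 fell by 0.45 (SE 0.11, adjusted p = 0.0414). Without the controls rich in Alb Rsad2 (2.43) and Gbp6 (-2.19) were called and Isg15 and Oasl2 were not. Isg20, an exonuclease outside this list, rose by 2.21 (SE 0.30, adjusted p = 0.00492). Gbp genes form a family of similar copies, and how reads that match several places were counted is not given in the sources used here.

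Of 11 inflammatory cytokine and chemokine genes 1 was called. Cxcl12 (chr6:117168535-117181368), a chemokine that holds blood progenitors in their niche, was at 71.0, 51.8, 71.7, 74.5, 62.5 and 63.1 CPM in HbAA-BERK replicates 1 to 6. In HbSS-BERK replicates 1 to 6 it was at 153, 126, 80.2, 133, 164 and 153 CPM, above every control, with replicate 3 the nearest to them. The log2 fold change was 1.04 (SE 0.15, adjusted p = 0.00605).

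Among 13 glucocorticoid-induced genes 3 fell, against 0.696% of all genes tested, and none rose, with a median of -0.42. Without the controls rich in Alb 1 fell, Per1 (adjusted p = 0.045), and with replicates 1 to 3 against 4 to 6 as a term 5 did. The summed level was 832 to 1586 CPM in HbAA-BERK and 664 to 866 CPM in HbSS-BERK mice. Per1, a clock gene that glucocorticoids also induce, was at 40.1 to 57.6 CPM in the control and 28.1 to 34.7 CPM in the sickle mice (-0.53, SE 0.09, adjusted p = 0.0136). Tsc22d3, also called GILZ, fell by 0.36 (SE 0.07, adjusted p = 0.0222) and Nfkbia, the inhibitor of NF-κB, by 0.54 (SE 0.12, adjusted p = 0.0348).

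Targets of hypoxia-inducible factor did not move as a group, with a median of 0.09 over 20 genes, of which 2 rose and 1 fell. Egln3, an oxygen-sensing prolyl hydroxylase, rose by 0.85 (SE 0.15, adjusted p = 0.0145) from 4.47 to 8.32 CPM to 9.31 to 14.7 CPM. Bnip3l, a mitophagy receptor that is also needed in reticulocytes, was higher by 0.34 (SE 0.08, adjusted p = 0.037). Ddit4 (chr10:59949675-59951770), an inhibitor of mTOR signalling that hypoxia and glucocorticoids induce, went down. It was at 141, 141, 110, 96.9, 98.6 and 81.2 CPM in HbAA-BERK replicates 1 to 6 and at 55.4 to 68.8 CPM in HbSS-BERK mice (-0.83, SE 0.13, adjusted p = 0.00679). The groups did not overlap, and Ddit4 was called at -0.63 without the controls rich in Alb, which held its highest values (adjusted p = 0.0309). Egln3 (0.0521) and Bnip3l (0.168) were not called there.

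**Figure D4:**
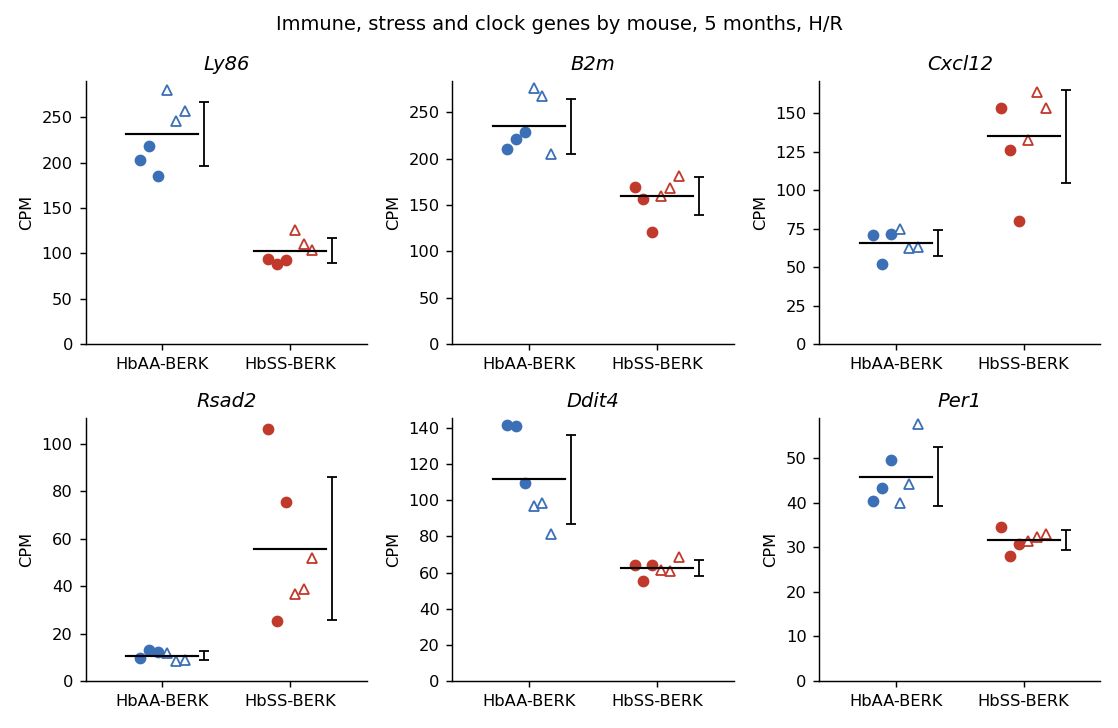
Level in CPM (linear vertical axes) of Ly86, B2m, Cxcl12, Rsad2, Ddit4 and Per1 in each mouse, with the same symbols as for the erythroid genes. In each panel the 6 sickle mice do not overlap with the 6 controls. For Ly86 the controls are at 185 to 280 CPM and the sickle mice at 88.9 to 125 CPM.

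Structural and metabolic genes gave few calls, where 0.696% of all genes tested fell and 1.62% rose. Col5a2 (chr1:45374331-45503282), a chain of type V collagen, fell by 0.83 (SE 0.12, adjusted p = 0.00605) and Lum, the proteoglycan lumican, by 0.66 (SE 0.13, adjusted p = 0.0191), out of 20 fibroblast and collagen genes with a median of -0.15. Of 18 cholesterol synthesis genes Cyp51 (-0.48, SE 0.08) and Dhcr7 (-0.33, SE 0.06) fell, with a median of -0.20. Slc1a3, the glutamate transporter of satellite glia, fell by 0.53 (SE 0.12, adjusted p = 0.036), and Srxn1, which repairs oxidised peroxiredoxin, by 0.51 (SE 0.12, adjusted p = 0.0438). Abcc9, a subunit of the KATP channel of pericytes, rose by 1.15 (SE 0.23, adjusted p = 0.0246). Of these, only Col5a2 was also called without the controls rich in Alb. No gene of the myelinating Schwann cell (13 tested), endothelial (19) or heat shock and unfolded protein (17) lists was called.

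At a Bonferroni-adjusted p under 0.05 and a change of at least 2-fold, 9 genes passed (0.0591% of those tested). Besides Hba-x, Bpgm, Alas2, Rsad2 and Ly86 these were Klk1b22, Apol11b, A930005H10Rik and B3gat2. Klk1b22 (chr7:44112673-44116922), a glandular kallikrein, had 0, 0, 0, 0, 1 and 0 reads in HbAA-BERK replicates 1 to 6 and 73, 178, 24, 84, 207 and 55 reads in HbSS-BERK replicates 1 to 6. This is nearly presence against absence in 1 of a cluster of similar kallikrein genes, whose reads may be shared. Apol11b, an apolipoprotein L gene, was at 0.280 to 3.11 CPM in HbAA-BERK and 12 to 62.9 CPM in HbSS-BERK mice (4.2, SE 0.52, adjusted p = 0.00385). B3gat2, a glucuronyltransferase, fell by 1.26 (SE 0.16). The serine protease inhibitor Serpina3g fell by 1.00 (SE 0.16, adjusted p = 0.00734), from 94.8 to 120 CPM to 40.9 to 76.3 CPM. Serpina1e, made by the liver, had a log2 fold change of -4.18 (SE 1.31, adjusted p = 0.141), and of -0.98 (adjusted p = 0.684) without the controls rich in Alb.

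Of the other genes with the smallest p or the largest fold, Cldn13 (2.85, SE 0.38), a claudin, Gdpd3 (0.98, SE 0.14) and 4933404O12Rik (1.00, SE 0.14) rose. Slfn14, an endoribonuclease known from platelets and red cell precursors, rose by 3.32 (SE 0.51). Apol8, another apolipoprotein L gene, rose by 1.28 (SE 0.27, adjusted p = 0.0305). A930005H10Rik fell by 1.23 (SE 0.12, adjusted p = 0.000729), Olfml3 by 1.07 (SE 0.14), 5830417I10Rik by 0.90 (SE 0.12), Phtf1 by 0.90 (SE 0.11), Hfm1 by 1.57 (SE 0.23), Plscr2 by 0.79 (SE 0.12) and Mmadhc, a gene of cobalamin metabolism, by 0.42 (SE 0.06). The knocked-out globin loci have neighbours that were counted too. Of 26 genes tested within 2 Mb of the α globin locus 2 rose (7.69%, against 2.31% of all genes called), Nprl3 (0.76, SE 0.12) and Hba-x, and of 44 within 2 Mb of the β globin locus 1 rose, Olfr632 (1.59, SE 0.30), and 1 fell, the injury gene Cckbr (4.55%).

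**Figure D5:**
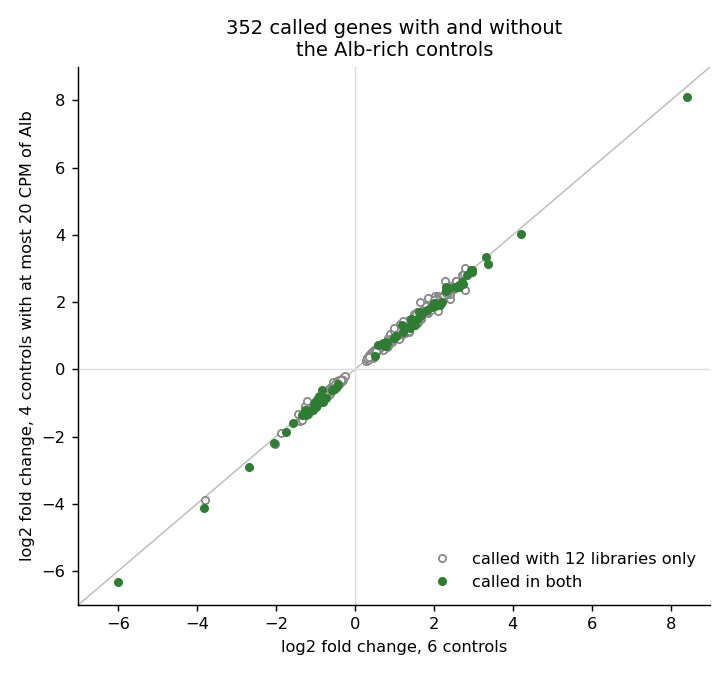
Log2 fold change of the 352 called genes with all 6 controls (horizontal axis) and with the 4 controls that had at most 20 CPM of Alb (vertical axis). Each point is a gene. Both fits share 10 mice and the genes were chosen in the first, so the likeness of the axes is no independent support, and 71 of the 352 genes were called in both.

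The design also asks whether the genotype difference depends on H/R and on age. In the fit of both treatments at 5 months no gene of 15677 passed for the interaction of genotype with H/R by edgeR (0%), 623 had an unadjusted p under 0.05 (3.97%), and DESeq2 called 8. The smallest adjusted p was 0.0566, reached by Ifi202b and Gdpd3 among others, and genes passed without HbAA-BERK replicate 3 (3 genes), 5 (4) or 6 (2) or sickle replicate 2 (1). In normoxia at 5 months the genotype comparison itself called 90 genes higher (0.589%) and 63 lower (0.412%). Alas2 (log2 fold change 2.196), Hba-x (3.477), Bpgm (1.24), Rsad2 (2.098), Apol11b (3.604) and Phtf1 (-1.072) were among them. Gata1 (1.48, adjusted p = 0.239), Mki67 (1.386, 0.339), Atf3 (-1.021, 0.368) and Col5a2 (-0.313, 0.819) were not. After H/R at 2 months Alas2 (2.509), Hba-x (3.258), Rsad2 (2.433) and Phtf1 (-1.023) were called. Bpgm (1.561, adjusted p = 0.0514), Apol11b (2.663, 0.192) and Klk1b22 (1.292, 0.888) were not. Klk1b22 had too few reads to be tested in normoxia at 5 months. Its interaction of genotype with age after H/R was 7.08 (SE 2.33, adjusted p = 0.322) and was not called. These comparisons use other mice of both genotypes, and whether the larger number of calls after H/R is itself a difference was asked only by the interaction.

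For the interaction of genotype with age after H/R 7 of 15618 genes passed (0.0448%), and 3 of them, Sprr1a, Ecel1 and Atf3, are on the nerve injury list described above. In Sprr1a the genotype difference was 10.11 lower on the log2 scale at 5 than at 2 months (SE 1.63, adjusted p = 0.025), in Ecel1 6.43 lower (SE 1.10, 0.025), in Atf3 4.31 lower (SE 0.74, 0.025) and in Nts 3.81 lower (SE 0.67, 0.0296). In the H/R mice of 2 months the log2 fold changes were 4.11 for Sprr1a (adjusted p = 0.209), 2.60 for Ecel1 (0.227), 1.63 for Atf3 (0.307) and 1.77 for Nts (0.192), none of them called, where 10 genes were higher (0.0657%) and 14 lower (0.0920%) in all.

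On the scale of all 48 libraries Sprr1a was at 0.539 to 7.02 CPM (median 0.916, 7 mice) in HbAA-BERK and 0.610 to 115 CPM (median 7.95, 6 mice) in HbSS-BERK mice in the younger H/R groups. In the older H/R groups it was at 1.12 to 125 CPM (median 20.1) in HbAA-BERK and 0 to 1.99 CPM (median 0.271) in HbSS-BERK mice. High values thus occurred in some sickle mice at 2 months and in most controls at 5 months. In normoxia at 5 months the medians were 2.53 and 0.188 CPM, and at 2 months in normoxia the highest HbAA-BERK mouse was at 60.2 CPM, so high values also occurred without H/R. Atf3 had H/R medians of 14.8 CPM (HbAA-BERK) and 33.1 CPM (HbSS-BERK) at 2 months, and of 42.8 and 10.2 CPM at 5 months.

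Of the other 3 genes, the collagen receptor gene Ddr2 (-0.71, SE 0.13, adjusted p = 0.0442) and Wfdc3 (-4.64, SE 0.89, adjusted p = 0.0482) shared this direction. Camk2b, the β chain of a calcium-dependent kinase of neurons, went the other way (0.61, SE 0.11, adjusted p = 0.0349). Camk2b had medians of 66.8 and 55.0 CPM in HbAA-BERK and HbSS-BERK mice at 2 months and of 54.8 and 68.3 CPM at 5 months. The number of genes called for this interaction was 0 without the libraries rich in Alb, 0 without HbSS-BERK replicate 2, 3, 5 or 6, 4 without HbAA-BERK replicate 4, 11 without HbAA-BERK replicate 3 and 56 by DESeq2.

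Of the 58 called genes picked by the naming rule, 44 stayed called whichever of the 12 mice was left out, among them Alas2, Gata1, Epor, Mki67, Sprr1a, Atf3, Ecel1, Ly86, B2m, Rsad2, Cxcl12, Ddit4 and Col5a2. Without both controls rich in Alb 33 of the 58 kept their call and 25 lost it, Mki67 (adjusted p = 0.0556) and B2m (0.0512) among them. The other 14 lost their call in some of the fits with 1 mouse left out. Those fits have fewer mice, so a lost call does not show that 1 mouse drives the difference. Stmn4 lost its call without control replicate 1 or 5 or sickle replicate 3 (adjusted p up to 0.0544), and Abcc9 without control replicate 4 or 5 or sickle replicate 1, 3 or 6 (up to 0.055). Tsc22d3 lost it without control replicate 1 or 2 or sickle replicate 3, 4, 5 or 6 (up to 0.0676). Apol8 kept it only without control replicate 3 or sickle replicate 1, 2, 4 or 5 (up to 0.0697), and Isg15 only without control replicate 4 or 5 or sickle replicate 2 or 4 (up to 0.0802). Bnip3l kept it only without control replicate 4 or 5 or sickle replicate 2 or 3 (up to 0.0824), and Calcb only without control replicate 4 or sickle replicate 2, 4 or 5 (up to 0.0662). Blvrb kept it only without control replicate 5 or 6 or sickle replicate 2 (up to 0.0861), Nts only without HbAA-BERK replicate 2, 3 or 4 (up to 0.0797) and Slc1a3 only without control replicate 2 or sickle replicate 4 or 5 (up to 0.0704). The calls of Adgre1 (up to 0.0873), Oasl2 (up to 0.0932), Srxn1 (up to 0.0918) and Nfkbia (up to 0.0773) held in only 2 of the 12 fits each. Fech, named beside them, also lost its call in 7 of the 12 fits (up to 0.0622), while Slc4a1, Klf1, Rhd, Kel, Epb4.1, Epb4.2, Icam4, Aqp1, Nprl3 and Olfr632 kept theirs in all 12.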

How the data were processed

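RNA was sequenced from DRG of single mice in 8 groups. Of 49 libraries in the labels 48 were used, and 12 of these are compared here. For the deposited read counts per gene, the authors trimmed paired reads (Trimmomatic), mapped them to mm10 (TopHat2 2.0.13 with Bowtie2 2.2.4.0) and counted them with featureCounts. The authors derived the deposited FPKM with cuffquant and cuffnorm, and these served only as an alternative. The strand setting and the handling of reads that match several places are not given in the sources used here, so levels of similar copies, overlapping genes and antisense genes are uncertain.

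From 24420 rows, 27 with a date for a gene name (0.242% to 0.257% of reads) were dropped, and 1 column, headed with an age outside the groups, was left out. Genes kept by filterByExpr (15221) were tested with the quasi-likelihood test of edgeR 4.0.16, with TMM scaling, on the 12 libraries. Each interaction was fitted on the 4 groups concerned. The genes named are the 12 per direction with the smallest p, the 5 per direction with the largest fold, up to 5 called genes and the most abundant gene of each of 43 lists, up to 5 genes per direction of each interaction, 3 genes the study names, and Alb. Some genes that this rule picks are not reported here. Genes outside the rule were chosen after their values were seen. The comparison and the lists were chosen with earlier results of these data known. The code of the test was checked on simulated data with 200 changed genes. These had less spread between mice, no split of the replicates and no outlying mice. That check therefore does not show how the test performs on the present data. R 4.3.3, limma 3.58.1, DESeq2 1.42.0, Python 3.11.15, numpy 2.4.6, pandas 2.3.3 and matplotlib 3.10.9 were used. Alternatives are given in the closing section. Leaving out both sides of the replicate numbers in turn, and combining settings, were chosen after seeing the data. Promoter sequences are from RefSeq, GRCm38.p6.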

Additional observations from a re-analysis of the deposited data

Results flagged for a closer look

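Single mice stood apart from the other 5 of their group in 28 of the 190 combinations of a named gene and a group examined with Dixon's test. Chance gives about 1 in 20 only for independent, normally distributed values. The CPM used here need not be either, so 28 of 190 cannot be set against that rate. HbSS-BERK replicate 1 was the highest of its group in Alas2 (574 CPM), Bpgm (226 CPM), Gata1 (23.3 CPM), Isg20 (51.7 CPM), Ube2c (33.2 CPM), Birc5 (28.9 CPM), Cdk1 (24.9 CPM), Rrm2 (68.2 CPM), S100a9 (407 CPM), Tsc22d3 (219 CPM), Sprr1a (1.98 CPM) and Atf3 (11.8 CPM). HbAA-BERK replicate 6 was the highest of its group in Sprr1a (123 CPM), Atf3 (207 CPM), 4933404O12Rik (9.01 CPM), Oasl2 (50.4 CPM), Serpina3n (570.5 CPM), Srxn1 (721 CPM), Calca (2389 CPM) and Mgll (216 CPM), and the lowest in Itgb3 (15.0 CPM). The erythroid and cell cycle genes thus stood highest in 1 sickle mouse, and the injury genes, Calca and Serpina3n in 1 control mouse. Elsewhere HbAA-BERK replicate 2 stood apart in Alb (238 CPM) and Serpina1e (105 CPM), HbAA-BERK replicate 5 in Klk1b22 (0.0394 CPM, 1 read) and Comp (16.7 CPM), HbSS-BERK replicate 4 in Alb (2.60 CPM) and Mmadhc (53.4 CPM), and HbSS-BERK replicate 5 in Col5a2 (62.4 CPM).

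The genotype difference after H/R differed between 2 and 5 months, by the interaction term, in Sprr1a (-10.11), Ecel1 (-6.43), Atf3 (-4.31), Nts (-3.81), Wfdc3 (-4.64), Ddr2 (-0.71) and Camk2b (0.61), on the log2 scale.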

How the results depend on the processing

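The number of genes called for genotype (352) depended most on the tool, the mice and the model. It was 755 by DESeq2 (472 higher, 283 lower), 620 by the edgeR exact test, 768 with all 8 groups in 1 fit, 857 with replicates 1 to 3 against 4 to 6 as a term, 76 without the controls over 20 CPM of Alb and 215 by limma on log2(FPKM + 1) without a filter on low values. Leaving out 1 mouse at a time gave 157 to 326 calls. Chosen after seeing the data, replicates 4 to 6 alone gave 134, the fit without Alb-rich controls with the term for replicates 1 to 3 against 4 to 6 gave 129, and the fit without HbSS-BERK replicate 1 and the Alb-rich controls gave 130. RLE scaling (343), no filter (332), limma on log2(FPKM + 1) (238) and log2(FPKM + 0.1) (299) and replicates 1 to 3 alone (303) stayed within 1.5 times. The 9 genes at the Bonferroni rule became 119 by DESeq2, 116 by the exact test, 36 with all 8 groups, 15 with the term, 4 without the Alb-rich controls and 3 to 13 with a mouse left out. The interaction with H/R (0 calls) gave 8 by DESeq2 and 0 to 4 with a mouse left out. The interaction with age (7 calls) gave 56 by DESeq2, 13 with replicates 1 to 3 against the rest as a term, 0 without the Alb-rich controls and 0 to 11 with a mouse left out. Of the lists, nerve injury had 5 calls by edgeR and 10 by DESeq2.

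None of the 58 called genes picked by the naming rule changed sign in the settings compared gene by gene, which leave out the combined ones (56 of them could be fitted by limma). Some uncalled genes near 0 did. Without the Alb-rich controls Itgb3 was at 0.031, Tagln at -0.13, Tef at -0.020, Hsp90b1 at -0.016, Cnp at -0.15 and Nefl at 0.045. Cnp was at -0.0057 with the term and -0.0085 by limma on log2(FPKM + 1). In replicates 1 to 3 alone S100a9 was at 0.37, Ebf1 at -0.0089, Prph at 0.10, Hmgcs1 at -0.029, Tef at -0.027, Cnp at -0.053 and Nefl at 0.064. In replicates 4 to 6 alone Itgb3 was at 0.0044, Nefh at -0.094, Tagln at -0.022 and Krt10 at 0.023. With a mouse left out the ranges were -0.22 to 0.043 for Itgb3, -0.043 to 0.12 for Ebf1, -0.011 to 0.080 for Hmgcs1, -0.023 to 0.25 for Tagln, -0.12 to 0.12 for Cnp and -0.13 to 0.018 for Nefl. Apart from the fits with fewer mice the cause was not tested.

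Blocking on replicate number gave 471 called genes (294 higher, 177 lower). The deviations from the group mean correlated between same-numbered mice at 0.019 to 0.62 (6 pairs), with a mean of 0.278 against 0.288 for other numbers on the same side of the split and -0.289 across it, and 4 of 12 mice correlated best with their own number. The numbers were therefore not taken to pair the mice. A term for sex was not fitted, because marker genes gave the same sex in all 12 libraries.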

Other observations

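Receptors for catecholamines and a tachykinin, grouped after their values were seen, were among the genes that rose. Of 9 adrenergic receptor genes 3 rose, against 1.62% of all genes tested. Adra2b, the α2B receptor, was at 1.18, 1.05, 1.86, 1.53, 0.866 and 0.631 CPM in HbAA-BERK replicates 1 to 6 and at 4.12, 3.56, 3.98, 2.75, 4.80 and 3.69 CPM in HbSS-BERK replicates 1 to 6, without overlap. Adra2b rose by 1.70 (SE 0.24, edgeR adjusted p = 0.00605). It was also called without the controls rich in Alb (adjusted p = 0.045), and Adrb1, the β1 receptor (0.99, SE 0.21, adjusted p = 0.0296), was not (0.0757). Adra2b stayed called whichever mouse was left out, and Adrb1 lost its call in 7 of 12 fits. Tac2, which encodes neurokinin B, was at 0.224 to 0.992 CPM in HbAA-BERK and 1.34 to 6.16 CPM in HbSS-BERK mice. Tac2 rose by 2.32 (SE 0.38, adjusted p = 0.0096), and the other 3 tachykinin and receptor genes tested were not called.

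Of the 12 lower genes with the smallest p, A930005H10Rik, Phtf1, Olfml3 and 5830417I10Rik lie on chromosome 3, and the annotated ends of Olfml3 and Phtf1 are 230109 bases apart. Among 334 called genes with coordinates in RefSeq, 49 pairs of neighbours lie within 0.5 Mb of each other. Whether neighbours moved together was not tested.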
